A study of Rattus norvegicus with 12 samples.

Results

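Lysosomes are acidic organelles in which hydrolases break down proteins, glycans and lipids, and autophagy delivers parts of the cell's own content to them inside double-membraned vesicles. Proximal tubule cells carry many lysosomes because they digest protein reabsorbed from the filtrate. Many lysosomal and autophagy genes are known targets of TFEB and TFE3, transcription factors that bind a short E-box element and are held in the cytoplasm by the nutrient-sensing kinase complex mTORC1.

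Transcripts of 35 lysosome and autophagy genes were followed in the renal cortex of rats after cisplatin, a platinum compound that forms DNA cross-links and is toxic to kidney tubules. The 35 were listed by gene symbol, with earlier results of these data known. On the array 34 of the 35 matched a probe, out of 15645 named genes, and Naglu was not matched. Each of the 34 was well above background on all 12 arrays, so no filter on low signal removed a member. Where a gene had several probes, the one with the highest mean over the 12 arrays stood for it, which applied to 14 of the 34 (59 probes in all).

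The rats were male Sprague-Dawley animals bought at 5 weeks of age and treated for 4 weeks. Gavage cisplatin (3.75 mg/kg/day by gavage) was set against gavage water, and intravenous cisplatin (0.75 mg/kg/day by injection into a vein) against intravenous water. Each of the 4 groups held 3 animals, called biological replicates by the submitters, with 1 single-colour array of total cortical RNA per animal. Route, dose and experiment changed together, and the protocol shared by all samples states only the gavage dose, so the intravenous dose rests on the label of each sample. Water rats define the untreated level within each experiment.

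Between 66.1% and 73.9% of probes were well above background on an array and 0 were saturated. Cisplatin arrays had a 75th percentile signal of 1387 to 1532, and water arrays one of 969.7 to 1055. Levels below are the log2 signal of a probe minus the log2 of its array's 75th percentile, so they compare a transcript with the bulk of the transcripts on its own array. Changes are cisplatin minus water (log2 ± SE, n = 3 per group), and a member was called at a limma adjusted p under 0.05 over all 34444 features tested. Cortical RNA is bulk RNA, in which fewer cells of a type and less RNA per cell cannot be told apart.

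The promoters of the members were read to show the element that TFEB and TFE3 are known to bind. RefSeq promoters of the GRCr8 assembly, from 250 bases before to 50 bases after the start of a gene, were found for 30 of the 34 members. The E-box core CACGTG and the extended palindrome TCACGTGA, which contains the core, were searched; each reads the same on both strands. The core lay in 7 of 30 member promoters (23.3%), those of Atg5, Cd63, Ctsd, Gaa, Glb1, Lamp1 and Mcoln1, against 1826 of all 27457 promoters (6.65%). The extended form lay in 3 of 30 (10%), those of Ctsd, Lamp1 and Mcoln1, against 238 of 27457 (0.867%). A match is a description of letters in this window and not a binding site. The stretch just before the start is shown for 5 members that differ in how their transcripts moved, each 5′ to 3′ on the strand of its gene, with the matches in capitals:
Ctsd, chr1:206968822-206969071, minus strand: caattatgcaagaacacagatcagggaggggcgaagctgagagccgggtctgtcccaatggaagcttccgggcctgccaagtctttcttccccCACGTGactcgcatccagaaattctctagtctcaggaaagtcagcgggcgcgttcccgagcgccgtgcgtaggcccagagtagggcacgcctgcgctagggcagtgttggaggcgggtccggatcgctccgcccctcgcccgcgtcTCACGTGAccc
Lamp1, chr16:83075064-83075313, minus strand: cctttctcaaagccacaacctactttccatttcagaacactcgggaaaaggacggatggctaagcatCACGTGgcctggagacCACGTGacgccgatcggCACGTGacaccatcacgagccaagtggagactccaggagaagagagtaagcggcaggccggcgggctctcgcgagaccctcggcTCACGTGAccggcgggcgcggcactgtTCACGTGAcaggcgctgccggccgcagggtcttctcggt
Mcoln1, chr12:6358138-6358257, plus strand: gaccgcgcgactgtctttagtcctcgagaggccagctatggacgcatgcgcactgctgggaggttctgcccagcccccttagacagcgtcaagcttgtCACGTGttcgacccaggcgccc
Glb1, chr8:122963598-122963717, plus strand: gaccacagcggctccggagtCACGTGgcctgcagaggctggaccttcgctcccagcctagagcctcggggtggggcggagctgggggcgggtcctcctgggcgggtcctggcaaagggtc
Gaa, chr10:105028235-105028354, plus strand: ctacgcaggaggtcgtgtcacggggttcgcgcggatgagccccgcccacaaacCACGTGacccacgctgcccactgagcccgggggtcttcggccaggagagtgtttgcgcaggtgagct

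Lamp1 held 5 cores, 2 of them extended, the farthest at position -183 from its start. Ctsd held 2 cores, the one at position -10 within an extended match that begins at -11. Mcoln1 held a core at -22 and, past the printed stretch, an extended match at position 4 after the start. Of these 5 genes only Ctsd was higher with cisplatin in the comparisons that follow, and Lamp1, Mcoln1, Glb1 and Gaa were lower. Atg5 and Cd63, whose promoters also held the core, were lower too. Among all 34 members 55.9% were lower with gavage cisplatin and 44.1% with intravenous cisplatin, against 29.8% and 32% of all features. Whether members with the core moved differently from members without it was not tested. Of the members with the core that were lower, only Mcoln1 and Glb1 were also called lower on the spike-in scale given below.

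The gavage comparison asked how these transcripts stood after 4 weeks of oral cisplatin. Among the 34 members 8 rose, 19 fell and 7 did not pass the test, where 29.5% of all features tested rose and 29.8% fell (59.3% passed in either direction). The members that rose were the proteases Ctsk, Ctsd and Ctss, the glycosidase Gusb, the cholesterol transporters Npc1 and Npc2, the membrane protein Scarb2 and the transcription factor Tfe3. Largest among the falls were Ctsa, Mcoln1, Neu1, Glb1 and Gabarapl1. The median change of the 34 members was -0.42, against 0.0068 over all features tested.

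In the intravenous comparison, at the lower daily dose, 9 of the 34 members rose, 15 fell and 10 did not pass, where 26.4% of all features rose and 32% fell (58.4% passed in either direction). The median change of the members was -0.32, against -0.063 over all features. In both experiments 6 members were called higher (22% of all features were) and 14 lower (23.5% of all features). Those higher in both were Ctsd, Ctsk, Gusb, Npc1, Scarb2 and Tfe3. Those lower in both were Ctsa, Ctsh, Lgmn, Hexa, Glb1, Gaa, Neu1, Lamp1, Lamp2, Cd63, Mcoln1, Atg5, Map1lc3b and Gabarapl1. Another 7 members were called only in the gavage experiment, 4 only in the intravenous one, and 3 in neither; no member passed the test of the difference between the experiments.

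The gap between the arrays of each group gave a similar split. In the gavage experiment all 3 cisplatin arrays lay above all 3 water arrays for 9 members (33.2% of all features) and below them for 20 (33.7%). In the intravenous experiment this held for 9 members above (29.7%) and 16 below (36.3%).

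These directions are relative to the 75th percentile of each array. Scaled instead to 7 spike-in probes, control RNAs added during labelling, the median of all features was itself 0.70 higher with gavage cisplatin and 0.47 higher with intravenous cisplatin. On that scale 15 members rose and 6 fell with gavage cisplatin, while 62.8% of all features rose and 8.99% fell. With intravenous cisplatin 15 rose and 5 fell, while 50.5% of all features rose and 9.34% fell. This scaling adds 1 constant per array, so the median of the members minus that of all features is the same on both scales by construction (-0.43 in the gavage experiment and -0.25 in the intravenous one). Where a fall named below did not pass on the spike-in scale, its value there is given in the same paragraph.

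**Figure D1:**
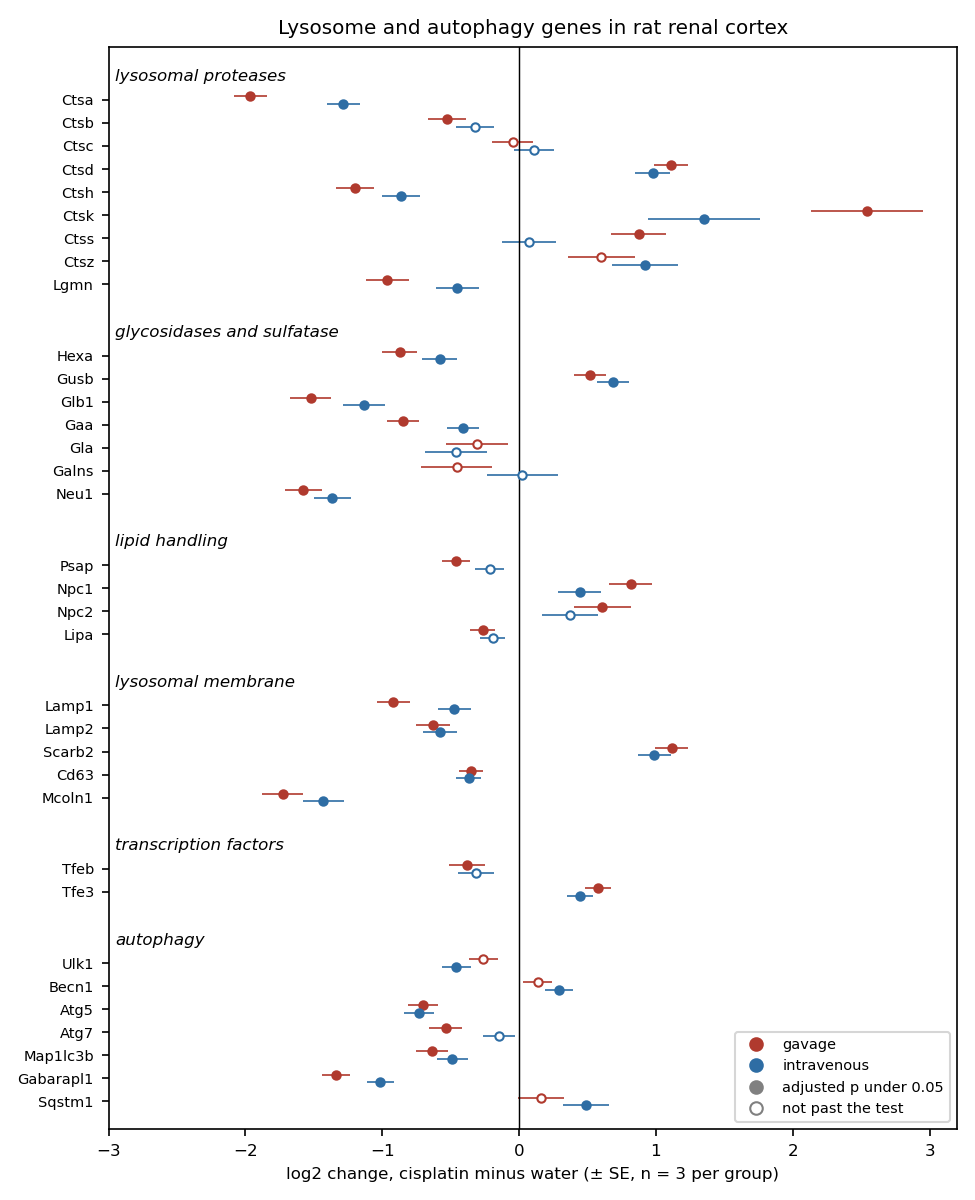
Change of each of the 34 members with cisplatin, as log2 cisplatin minus water on the horizontal axis with SE bars (n = 3 per group), grouped by role; red points are the gavage and blue points the intravenous experiment, filled where the adjusted p was under 0.05. Ctsk lies farthest to the right and Ctsa farthest to the left, and proteases lie on both sides of 0 while most glycosidases, membrane proteins and autophagy genes lie left of it.

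The 9 lysosomal proteases went both ways. In the gavage experiment 3 rose (33.3%) and 4 fell (44.4%), where 29.5% of all features rose and 29.8% fell. In the intravenous experiment 3 rose and 3 fell (33.3% each), near the 26.4% and 32% of all features. Ctsk encodes cathepsin K, a collagen-degrading protease best known from osteoclasts. Its level was 1.90, 2.01 and 2.80 on the gavage cisplatin arrays, against -0.11, -0.37 and -0.44 on the gavage water arrays. With intravenous cisplatin it was 2.21, 1.03 and 0.31, against -0.17, 0.060 and -0.40 with intravenous water. The groups did not overlap in either experiment, and the intravenous cisplatin rats were widely spread, with replicate 3 close to the water rats. Ctsk rose by 2.54 ± 0.41 with gavage cisplatin (5.83-fold, adjusted p = 0.000418) and by 1.35 ± 0.41 with intravenous cisplatin (2.55-fold, adjusted p = 0.0167). Without intravenous cisplatin replicate 1, its highest array, the intravenous change of Ctsk was 0.84 (adjusted p = 0.0391), and without intravenous water replicate 3 it was 1.24 and no longer passed (adjusted p = 0.0529).

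Ctsd encodes cathepsin D, the main aspartic protease of the lysosome. It had levels of 7.76, 7.61 and 7.68 with gavage cisplatin, against 6.67, 6.38 and 6.67 with gavage water. Intravenous cisplatin gave 7.74, 7.41 and 7.34, against 6.44, 6.66 and 6.47 with intravenous water. All cisplatin arrays lay above all water arrays by a margin wider than the spread within a group. Ctsd rose by 1.11 ± 0.13 (2.16-fold, adjusted p = 4.32e-05) and 0.98 ± 0.13 (1.97-fold, adjusted p = 0.000138) in the gavage and intravenous experiments.

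Ctss encodes cathepsin S, which processes antigens in macrophages and other antigen-presenting cells. It stood at 3.35, 3.09 and 3.89 with gavage cisplatin, against 2.50, 2.58 and 2.64 with gavage water. It was 3.16, 3.34 and 3.07 with intravenous cisplatin, against 2.79, 3.26 and 3.30 with intravenous water. The gavage groups were apart and the intravenous groups overlapped. Ctss rose by 0.87 ± 0.20 in the gavage experiment (adjusted p = 0.0035), and its intravenous change was 0.073 ± 0.20 (adjusted p = 0.769). The other probe of Ctss gave 0.75 and 0.21.

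Ctsz, encoding the carboxypeptidase cathepsin Z, had levels of -0.19, -0.34 and -0.47 with gavage cisplatin, against -0.97, -0.74 and -1.10 with gavage water. With intravenous cisplatin it had -0.45, 0.58 and -0.044, against -1.14, -1.0 and -0.54 with intravenous water. Cisplatin arrays lay above water arrays in both experiments, narrowly so in the intravenous one. Its change was 0.60 ± 0.24 with gavage cisplatin, which did not pass (adjusted p = 0.0547), and it rose by 0.92 ± 0.24 with intravenous cisplatin (adjusted p = 0.00862). The gavage value passed when any of intravenous cisplatin replicate 1, intravenous cisplatin replicate 2 or intravenous water replicate 3 was left out of the shared estimate of spread (adjusted p = 0.0268, 0.0174 and 0.0466).

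Ctsa had the largest fall of any member with gavage cisplatin, while Mcoln1 and Neu1 fell by more with intravenous cisplatin. It encodes protective protein, or cathepsin A, a carboxypeptidase that also holds the sialidase and the beta-galactosidase of the lysosome in a stable complex. Its level was 6.74, 6.53 and 6.37 with gavage cisplatin, against 8.60, 8.44 and 8.49 with gavage water. It was 6.76, 6.94 and 7.03 with intravenous cisplatin, against 8.19, 8.34 and 8.06 with intravenous water. Groups were far apart relative to their own spread in both experiments. Ctsa fell to a level 3.90-fold lower with gavage cisplatin (-1.96 ± 0.12, adjusted p = 1.36e-06) and 2.44-fold lower with intravenous cisplatin (-1.28 ± 0.12, adjusted p = 2.23e-05). Its other probes gave changes of -2.22 and -2.18 (gavage) and -1.41 and -1.55 (intravenous).

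Of the remaining proteases, Ctsh, an aminopeptidase, fell by 1.20 and 0.86 on the log2 scale in the gavage and intravenous experiments. Lgmn, the asparaginyl endopeptidase legumain that processes other cathepsins, fell by 0.96 and 0.45. On the spike-in scale the intravenous value of Ctsh no longer passed (-0.33), and Lgmn gave -0.27 and 0.081. The intravenous call of Lgmn also ended without any of intravenous cisplatin replicates 1 and 3 or intravenous water replicates 1 and 2 (changes of -0.41, -0.45, -0.48 and -0.32, adjusted p between 0.051 and 0.115). Ctsb, the cysteine protease cathepsin B, fell by 0.53 with gavage cisplatin and gave -0.32 with intravenous cisplatin, which did not pass (0.16 and 0.21 on the spike-in scale); without intravenous cisplatin replicate 1 the intravenous value was -0.46 and passed (adjusted p = 0.00932). Ctsc, which activates the serine proteases of immune cells, gave -0.047 and 0.11 and passed in neither.

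Glycosidases and the sulfatase leaned lower, with 1 of 7 measured higher (14.3%) and 4 lower (57.1%) in each experiment. Of all features 29.5% rose and 29.8% fell with gavage cisplatin, and 26.4% and 32% with intravenous cisplatin. On the spike-in scale only the falls of Neu1 and Glb1 also passed. Neu1, the lysosomal sialidase, and Glb1, the beta-galactosidase that removes terminal galactose, are the partners of the Ctsa product in its complex. Neu1 had levels of 1.44, 1.22 and 1.22 with gavage cisplatin, against 3.06, 2.70 and 2.85 with gavage water. It had 1.32, 1.53 and 1.77 with intravenous cisplatin, against 2.85, 3.00 and 2.86 with intravenous water. The cisplatin arrays lay clearly below the water arrays in both experiments. Neu1 fell, with changes of -1.58 ± 0.13 (2.99-fold lower, adjusted p = 7.8e-06) and -1.37 ± 0.13 (2.58-fold lower, adjusted p = 3.04e-05).

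Glb1 showed 3.5, 3.7 and 3.39 with gavage cisplatin, against 5.15, 4.92 and 5.10 with gavage water. With intravenous cisplatin it showed 3.49, 3.87 and 4.02, against 4.95, 5.09 and 4.74 with intravenous water. Again no cisplatin array reached the level of a water array. Glb1 fell, with changes of -1.52 ± 0.15 (2.87-fold lower, adjusted p = 1.94e-05) and -1.13 ± 0.15 (2.19-fold lower, adjusted p = 0.000169). The 3 genes of this complex were thus lower in both experiments, and each of their other probes was also called lower.

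Gusb, the beta-glucuronidase, was the glycosidase that rose. Its level was 0.95, 0.60 and 0.95 with gavage cisplatin, against 0.40, 0.30 and 0.25 with gavage water. It was 0.91, 0.75 and 0.62 with intravenous cisplatin, against -0.0013, 0.18 and 0.050 with intravenous water. Groups did not overlap, although the change was smaller than those of Neu1 and Glb1. Gusb rose by 0.52 ± 0.12 (adjusted p = 0.00351) and 0.69 ± 0.12 (adjusted p = 0.000737), and its other probes gave 0.82 and 0.71 (gavage) and 0.51 and 0.61 (intravenous).

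Hexa, the alpha subunit of the beta-hexosaminidase that degrades gangliosides, fell by 0.87 and 0.58 in the gavage and intravenous experiments. Gaa, the acid alpha-glucosidase that degrades glycogen, fell by 0.85 and 0.41. Scaled to the spike-ins, Hexa gave -0.18 and -0.049 and Gaa -0.16 and 0.12, none of which passed. Without intravenous water replicate 2 the intravenous change of Gaa was -0.35 (adjusted p = 0.0508). Gla, the alpha-galactosidase, gave -0.31 and -0.46, and Galns, a sulfatase of keratan sulfate, gave -0.46 and 0.024. Neither passed, although without intravenous water replicate 3 the intravenous change of Gla was -0.64 and passed (adjusted p = 0.0446).

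**Figure D2:**
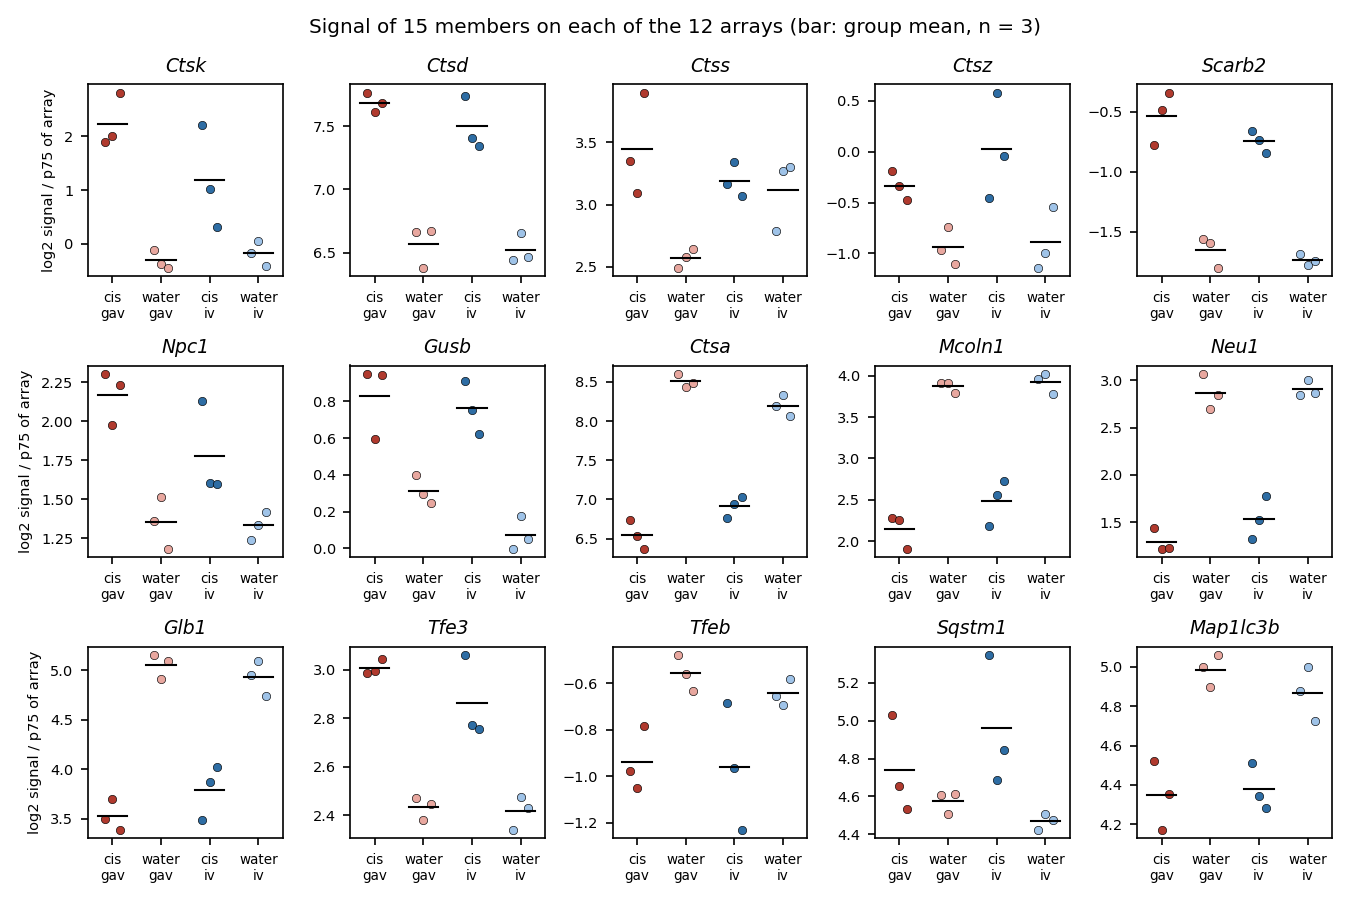
Level of 15 members on each of the 12 arrays, as log2 signal relative to the 75th percentile of the array on the vertical axis, with gavage cisplatin, gavage water, intravenous cisplatin and intravenous water from left to right; points are animals and bars the mean of 3. Ctsa, Mcoln1, Neu1 and Glb1 show cisplatin groups far below their water groups, Ctsd and Scarb2 show them above, and Ctsk shows a wide spread among intravenous cisplatin rats.

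Lipid handling was mixed, with 2 members higher and 2 lower of 4 in the gavage experiment (50% each) and 1 higher in the intravenous one (25%). Of all features 29.5% rose and 29.8% fell with gavage cisplatin, and 26.4% rose with intravenous cisplatin. Npc1 and Npc2 together carry cholesterol out of the lysosome. Npc1 had levels of 2.30, 1.97 and 2.23 with gavage cisplatin, against 1.36, 1.52 and 1.18 with gavage water. It had 2.13, 1.60 and 1.60 with intravenous cisplatin, against 1.24, 1.34 and 1.42 with intravenous water. The groups were apart in both experiments, by less in the intravenous one, where replicate 1 of the cisplatin rats was the highest. Npc1 rose by 0.82 ± 0.16 (adjusted p = 0.00131) and 0.44 ± 0.16 (adjusted p = 0.033). The intravenous call ended without intravenous cisplatin replicate 1 (0.27), intravenous water replicate 1 (0.40) or intravenous water replicate 2 (0.45), with adjusted p of 0.105, 0.096 and 0.0716. All 7 probes of Npc1 gave positive changes in both experiments.

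Npc2 rose by 0.61 ± 0.21 with gavage cisplatin (adjusted p = 0.0265) and gave 0.37 with intravenous cisplatin (adjusted p = 0.144). Without gavage cisplatin replicate 3 or gavage water replicate 2 the gavage change was 0.45 or 0.49 and did not pass (adjusted p = 0.101 and 0.097), and without intravenous cisplatin replicate 3 the intravenous change was 0.58 and did (adjusted p = 0.0287). Psap, the precursor of the saposins that present sphingolipids to their hydrolases, fell by 0.46 with gavage cisplatin and gave -0.22 with intravenous cisplatin, which did not pass. Lipa, the acid lipase that frees cholesterol from its esters, fell by 0.27 with gavage cisplatin and gave -0.19 with intravenous cisplatin. The gavage call of Lipa ended without any of gavage cisplatin replicates 2 and 3 or gavage water replicates 1 and 2 (changes of -0.22, -0.28, -0.23 and -0.28, adjusted p between 0.0542 and 0.099), and its intravenous value passed without intravenous cisplatin replicate 1 (-0.26, adjusted p = 0.0413). Psap (0.23 and 0.32) and Lipa (0.42 and 0.34) were above 0 on the spike-in scale.

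Among the 5 membrane proteins 1 was higher (20%) and 4 were lower (80%) in each experiment. Of all features 29.5% rose and 29.8% fell with gavage cisplatin, and 26.4% and 32% with intravenous cisplatin. On the spike-in scale only the fall of Mcoln1 also passed. Mcoln1 encodes mucolipin-1, a cation channel that releases calcium from the lysosome. Its level was 2.28, 2.25 and 1.91 with gavage cisplatin, against 3.92, 3.92 and 3.8 with gavage water. It was 2.18, 2.56 and 2.72 with intravenous cisplatin, against 3.97, 4.02 and 3.77 with intravenous water. The cisplatin arrays were the lower ones throughout, with a gap wider than 1 log2 unit. Mcoln1 fell, with changes of -1.73 ± 0.15 (3.31-fold lower, adjusted p = 8.79e-06) and -1.43 ± 0.15 (2.70-fold lower, adjusted p = 4.3e-05).

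Scarb2 encodes LIMP-2, the receptor that brings glucocerebrosidase to lysosomes. It stood at -0.78, -0.49 and -0.34 with gavage cisplatin, against -1.56, -1.59 and -1.80 with gavage water. It stood at -0.66, -0.73 and -0.84 with intravenous cisplatin, against -1.68, -1.78 and -1.75 with intravenous water. All 6 cisplatin arrays were above all 6 water arrays. Scarb2 rose by 1.11 ± 0.12 (2.17-fold, adjusted p = 2.78e-05) and 0.99 ± 0.12 (1.98-fold, adjusted p = 8.76e-05).

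Lamp1 and Lamp2 encode the most abundant glycoproteins of the lysosomal membrane. Lamp1 fell by 0.92 with gavage cisplatin and by 0.47 with intravenous cisplatin, and Lamp2 fell by 0.63 and 0.58. The tetraspanin Cd63 fell by 0.35 and 0.37. None of these 3 fell on the spike-in scale, where Lamp1 gave -0.23 and 0.058, Lamp2 0.061 and -0.045, and Cd63 0.34 and 0.16.

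The 2 transcription factors went opposite ways. Tfeb had levels of -0.98, -1.05 and -0.79 with gavage cisplatin, against -0.48, -0.56 and -0.63 with gavage water. It had -0.68, -0.96 and -1.23 with intravenous cisplatin, against -0.66, -0.69 and -0.58 with intravenous water. The gavage groups were apart, while intravenous cisplatin replicate 1 lay among the water rats. Tfeb fell by 0.38 with gavage cisplatin (SE 0.13, adjusted p = 0.0288) and gave -0.32 ± 0.13 with intravenous cisplatin (adjusted p = 0.0617). Without gavage cisplatin replicate 1 or 2, or gavage water replicate 1 or 2, the gavage change was -0.36, -0.33, -0.34 and -0.38 and did not pass (adjusted p = 0.0704, 0.091, 0.0874 and 0.0641), and without intravenous cisplatin replicate 1 the intravenous change was -0.45 and passed (adjusted p = 0.00853). Tfeb gave 0.31 and 0.22 on the spike-in scale. A dimmer probe of Tfeb gave -0.70 and -0.77, not past the test.

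Tfe3, the paralog of Tfeb, had levels of 2.99, 2.99 and 3.04 with gavage cisplatin, against 2.47, 2.38 and 2.45 with gavage water. With intravenous cisplatin it had 3.06, 2.77 and 2.76, against 2.34, 2.48 and 2.43 with intravenous water. All cisplatin arrays lay above all water arrays. Tfe3 rose by 0.58 ± 0.093 (adjusted p = 0.000426) and 0.45 ± 0.093 (adjusted p = 0.00239), and its second probe gave 0.45 and 0.43, both past the test.

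The 7 autophagy members had 4 falls in each experiment (57.1%) and 2 rises in the intravenous one (28.6%). Of all features 29.8% fell with gavage cisplatin, and 32% fell and 26.4% rose with intravenous cisplatin. On the spike-in scale only the fall of Gabarapl1 also passed. Map1lc3b encodes LC3B, which is attached to the growing autophagosome membrane. Its level was 4.52, 4.17 and 4.35 with gavage cisplatin, against 5.0, 4.90 and 5.06 with gavage water. It was 4.51, 4.34 and 4.28 with intravenous cisplatin, against 4.88, 5.0 and 4.72 with intravenous water. The cisplatin arrays were lower in both experiments without overlap. Map1lc3b fell by 0.64 (SE 0.11, adjusted p = 0.000809) and 0.49 (SE 0.11, adjusted p = 0.00441), and its 2 other probes were called lower in both experiments, but on the spike-in scale its changes were 0.052 and 0.043.

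Gabarapl1, of the same ubiquitin-like family as LC3B, fell by more, by 1.34 and 1.01 on the log2 scale (SE 0.10 each, adjusted p = 3.81e-06 and 3.12e-05), and its second probe by 1.1 and 1.25. Atg5, part of the conjugate that attaches LC3 to lipid, fell by 0.70 and 0.73. A second probe of Atg5 gave -0.15 and -0.002, not past the test, and on the spike-in scale Atg5 gave -0.015 and -0.20. Atg7, the activating enzyme of both conjugation systems, fell by 0.54 with gavage cisplatin and gave -0.15 with intravenous cisplatin (0.15 and 0.38 on the spike-in scale). Ulk1, the kinase that starts autophagy, gave -0.26 with gavage cisplatin (adjusted p = 0.0533) and fell by 0.46 with intravenous cisplatin, while its second probe gave -0.45, past the test, and -0.13. The gavage value of Ulk1 passed without gavage cisplatin replicate 1 (-0.31, adjusted p = 0.0492). It also passed, unchanged at -0.26, without intravenous cisplatin replicate 1 or 2. On the spike-in scale the gavage and intravenous values of Ulk1 were above 0 (0.43 and 0.073). Becn1, of the lipid kinase complex that nucleates autophagosomes, gave 0.14 with gavage cisplatin and rose by 0.29 with intravenous cisplatin (adjusted p = 0.0356), a call that ended without intravenous cisplatin replicate 1 (0.20) or any one of the intravenous water arrays (0.32, 0.29 and 0.27, adjusted p between 0.0536 and 0.0949).

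Sqstm1 encodes p62, a receptor that carries ubiquitinated cargo into autophagosomes and is itself degraded there. Its level was 5.03, 4.65 and 4.53 with gavage cisplatin, against 4.61, 4.51 and 4.62 with gavage water. It was 5.35, 4.69 and 4.84 with intravenous cisplatin, against 4.42, 4.51 and 4.48 with intravenous water. The gavage groups overlapped, while the intravenous cisplatin arrays lay above the water arrays with replicate 1 the highest. Its change was 0.16 ± 0.17 with gavage cisplatin (adjusted p = 0.44), and it rose by 0.49 ± 0.17 with intravenous cisplatin (adjusted p = 0.0305). That call ended without intravenous cisplatin replicate 1 (0.30) or any one of the 3 intravenous water arrays (0.47, 0.51 and 0.49), with adjusted p between 0.0594 and 0.0963.

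The 5 probes of Sqstm1 disagreed. In a fit of every probe, those assigned to the same RefSeq transcript as the probe above gave 0.16, 0.25 and 0.23 with gavage cisplatin, none past the test, and 0.49, 0.49 and 0.47 with intravenous cisplatin, all past it. Both probes assigned to another RefSeq transcript gave lower values; probe sequences were not used here, so which transcript each probe measures was not checked. One changed by -0.38 ± 0.14 with gavage cisplatin (adjusted p = 0.0425) and -0.80 ± 0.14 with intravenous cisplatin (adjusted p = 0.00098), the opposite call. The other changed by -0.21 and -0.018 and did not pass. The mean of all 5 probes gave an intravenous change of 0.13, which did not pass.

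**Figure D3:**
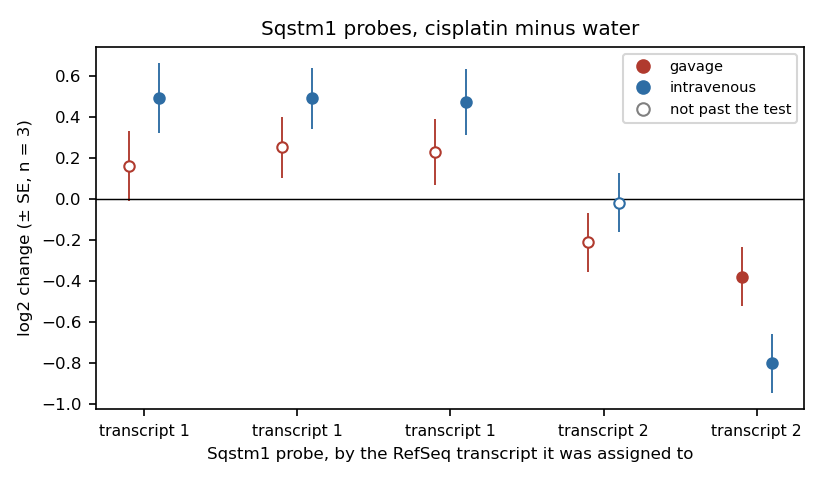
Change of each of the 5 Sqstm1 probes, as log2 cisplatin minus water on the vertical axis with SE bars (n = 3 per group), ordered by the RefSeq transcript a probe was assigned to; red points are gavage, blue points intravenous, and open points did not pass the test. The 3 probes of the first transcript lie above 0 and the 2 of the second below it, with the last at -0.80 in the intravenous experiment.

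Between the experiments, the difference of the cisplatin effects (intravenous minus gavage) passed the test for 0 of the 34 members (1.2% of all features passed), and 7 had an unadjusted p under 0.05. The smallest p belonged to Ctsa, with a difference of 0.68 ± 0.17 (adjusted p = 0.08). Ctsa passed without gavage cisplatin replicate 1 (0.77, adjusted p = 0.02) or intravenous cisplatin replicate 1 (0.75, adjusted p = 0.0371). Next came Ctss, with a difference of -0.80 ± 0.28 (adjusted p = 0.167), and Lamp1, with 0.45 ± 0.17 (adjusted p = 0.191). Ctsk had a larger difference, -1.19 ± 0.58, that did not pass, but it passed without intravenous cisplatin replicate 1 (-1.71 ± 0.40, adjusted p = 0.042). More of all features passed in these fits too. Without intravenous cisplatin replicate 1, 2.77% passed with a positive difference and 3.86% with a negative one. Without gavage cisplatin replicate 1 these shares were 1.56% and 5.9%.

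Set side by side, intravenous water and gavage water rats differed in 0 of the 34 members (0% of all features passed), and 3 had an unadjusted p under 0.05. These were Gaa (-0.34 ± 0.12, adjusted p = 0.241), Ctss (0.54 ± 0.20, adjusted p = 0.259) and Ctsa (-0.31 ± 0.12, adjusted p = 0.28), all as intravenous minus gavage. Ctss and Ctsa are also the members with the smallest p in the difference of effects, a comparison that shares these water arrays. Fitted to the 6 water arrays alone, 0 members passed and 6 had an unadjusted p under 0.05. In that fit 3.22% of all features were higher and 0.649% lower in intravenous than in gavage water rats.

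The other genes of the same pathways were taken from 7 lists holding 139 tested genes. In the gavage experiment 14 of the 139 rose (10.1%) and 74 fell (53.2%), with a median change of -0.35. In the intravenous experiment 14 rose (10.1%) and 65 fell (46.8%), with a median of -0.22. Of all features, 29.5% rose and 29.8% fell with gavage cisplatin, and 26.4% rose and 32% fell with intravenous cisplatin. Their median changes were 0.0068 and -0.063. The counts of each list and marker set below stand beside these shares. Counts of a list on the spike-in scale, given below, stand beside 62.8% of all features higher and 8.99% lower with gavage cisplatin on that scale, and 50.5% and 9.34% with intravenous cisplatin.

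Other lysosomal hydrolases followed the split of the members. Of 27 tested, 7 rose and 16 fell with gavage cisplatin, and 5 rose and 14 fell with intravenous cisplatin. Dnase2, the acid DNase, rose by 1.51 ± 0.15 and 1.40 ± 0.15. Man2b1, an alpha-mannosidase, fell by 0.94 and 0.82, and Fuca1, a fucosidase, fell by 1.28 and 0.95. The gavage change of Man2b1 did not pass with spike-in scaling (-0.25, adjusted p = 0.0636). On the spike-in scale the list had 13 rises and 6 falls with gavage cisplatin and 10 and 3 with intravenous cisplatin.

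Genes that sort proteins to lysosomes had 0 rises and 9 falls among 16 with gavage cisplatin, and 0 and 8 with intravenous cisplatin. Gnptg, a subunit of the enzyme that makes the mannose 6-phosphate tag, fell by 1.12 and 0.49. Cln6, an endoplasmic reticulum protein whose loss causes a lysosomal storage disease, fell by 0.75 and 0.46, and the retromer subunit Vps35 by 0.69 and 0.48. With spike-in scaling neither Cln6 (-0.061 and 0.068) nor Vps35 (-0.0054 and 0.055) passed in either experiment, and Gnptg did not in the intravenous one (0.046). The list had 8 rises and 1 fall with gavage cisplatin on that scale and 5 and 0 with intravenous cisplatin, where 62.8% and 50.5% of all features rose.

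Subunits of the V-ATPase, the proton pump that acidifies lysosomes, had 2 rises and 15 falls among 18 with gavage cisplatin and 2 and 12 with intravenous cisplatin. Atp6v1h fell by 1.06 and 0.73 (not passing with intravenous cisplatin on the spike-in scale, -0.20) and Atp6v0d1 by 1.48 and 1.16. Atp6v1b1, a subunit known from acid-secreting intercalated cells and listed with their markers too, fell by 1.45 and 1.35. Both rises in each experiment were Atp6v1d (1.00 and 0.94) and Atp6v0a1 (0.71 and 0.39), named because they were the exceptions. On the spike-in scale the list had 5 rises and 5 falls with gavage cisplatin and 6 and 3 with intravenous cisplatin.

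Other lysosomal membrane proteins were more evenly divided, with 4 rises and 6 falls among 18 with gavage cisplatin and 5 and 7 with intravenous cisplatin (12 and 2, and 11 and 1, on the spike-in scale). With gavage cisplatin 22.2% of the list rose and 33.3% fell, where 29.5% and 29.8% of all features did. With intravenous cisplatin 27.8% rose and 38.9% fell, where 26.4% and 32% of all features did. Gpnmb, a glycoprotein of phagocytes and injured epithelium, rose by 6.29 ± 0.36 and 5.78 ± 0.36. Cd68, a macrophage member of the LAMP family that also stands among the macrophage markers, rose by 1.71 and 1.42. The transporter Abca2 fell by 1.5 and 1.08.

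Other autophagy machinery had 1 rise and 10 falls among 24 with gavage cisplatin and 1 and 8 with intravenous cisplatin. The intravenous falls were 33.3% of the list, near the 32% of all features that fell. The rise was that of Vmp1, a protein of the endoplasmic reticulum needed to form autophagosomes (1.27 ± 0.13 and 1.15 ± 0.13). Gabarap and Gabarapl2, of the family of LC3B, fell by 0.75 and 0.51 and by 0.69 and 0.64. On the spike-in scale the list had 16 rises and 0 falls in each experiment, and neither Gabarap (-0.064 and 0.024) nor Gabarapl2 (-0.0016 and -0.11) passed.

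Autophagy receptors had 0 rises and 8 falls among 12 with gavage cisplatin and 0 and 7 with intravenous cisplatin. Pink1, the kinase that marks damaged mitochondria for autophagy, fell by 2.12 and 2.02 (SE 0.13 each) and by 1.44 and 1.49 on the spike-in scale. Tollip, which binds ubiquitinated cargo, fell by 1.04 and 0.71, and Bnip3, a receptor on mitochondria, by 0.87 and 0.63. With spike-in scaling Bnip3 passed in neither experiment (-0.18 and -0.095) and Tollip not in the intravenous one (-0.18). The receptors had 4 rises and 2 falls with gavage cisplatin and 4 and 3 with intravenous cisplatin on that scale.

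Other MiT/TFE factors and regulators of mTORC1 had 0 rises and 10 falls among 24 with gavage cisplatin and 1 and 9 with intravenous cisplatin. The intravenous falls were 37.5% of the list, where 32% of all features fell. Lamtor5, a subunit of the complex that anchors mTORC1 at lysosomes, fell by 1.76 ± 0.081 and 1.21 ± 0.081. Flcn, which controls the Rag GTPases there, fell by 0.95 and 0.72, and Tfec, another member of the family of Tfeb, by 1.28 and 0.91. The rise in the intravenous experiment was that of Tsc1 (0.45), an inhibitor of mTORC1. With spike-in scaling Flcn (-0.19) and Tfec (-0.37) did not pass in the intravenous experiment. The list had 14 rises and 3 falls with gavage cisplatin on that scale and 12 and 1 with intravenous cisplatin, where 62.8% and 50.5% of all features rose.

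**Figure D4:**
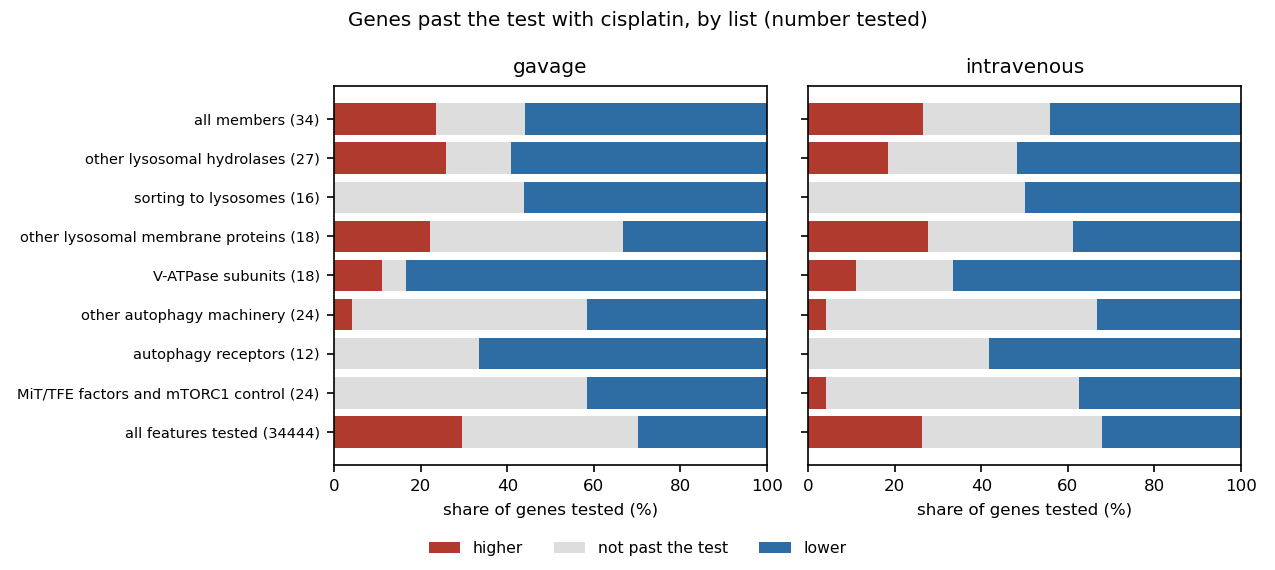
Share of the tested genes of each list that was higher (red), lower (blue) or not past the test (grey) with cisplatin, in percent of the genes tested (number in brackets), for the gavage experiment on the left and the intravenous one on the right; the lowest bar holds all 34444 features tested. V-ATPase subunits have the widest blue bars, 15 and 12 of 18 genes, and receptors and sorting genes have no red.

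Markers of cell types moved with the same comparisons. Of 12 proximal tubule markers, 12 fell with gavage cisplatin and 11 with intravenous cisplatin. On the spike-in scale Cubn passed in neither experiment (0.0012 and 0.13), and Aqp1 did not pass in the intravenous one (-0.96). Their summed relative signal was 142.5 to 334.5 with gavage cisplatin, against 2245 to 2562 with gavage water, and 258.4 to 870.5 with intravenous cisplatin, against 2119 to 2454 with intravenous water. Slc13a3, a dicarboxylate transporter, fell by 2.62 and 1.55, the glucose transporter Slc5a2 by 3.25 and 1.57 and the endocytic receptor Lrp2 by 2.35 and 1.73. Each of the 12 was well above background on at least 1 array of every group.

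All 6 thick ascending limb and distal markers fell in each experiment, to summed signals of 7.75 to 14.38 with gavage cisplatin, against 494.8 to 539 with gavage water, and of 8.99 to 50.72 with intravenous cisplatin, against 508.8 to 601.1 with intravenous water. All 6 intercalated cell markers fell in each experiment (42.28 to 47.62 against 76.52 to 82.04 with gavage, and 44.92 to 51.36 against 64.63 to 71.81 with injection, cisplatin against water). On the spike-in scale 2 of these 6 fell with gavage cisplatin and 1 with intravenous cisplatin. Podocyte markers had 4 of 5 lower in each experiment, and endothelial markers 3 and 2 of 6. On the spike-in scale 0 podocyte markers fell. Of the endothelial markers 3 and 2 rose on that scale, while Kdr still fell in both experiments (-0.41 and -0.39).

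Of 13 macrophage markers, 10 rose with gavage cisplatin and 7 with intravenous cisplatin. Their summed signal was 78.5 to 110.9 with gavage cisplatin, against 44.04 to 47.94 with gavage water, and 78.11 to 124.9 with intravenous cisplatin, against 40.56 to 69.44 with intravenous water. The mannose receptor Mrc1 rose by 3.46 and 2.64, the scavenger receptor Msr1 by 1.75 and 2.41, and the endotoxin coreceptor Cd14 by 2.17 and 2.13. All 6 water arrays had Cd163, a macrophage scavenger receptor, at a signal not well above background, as they did the fibroblast marker Postn. All 6 tested fibroblast markers rose in each experiment, with sums of 110.2 to 154.4 against 29.68 to 40.21 with gavage and 77.4 to 134.4 against 27.11 to 37.65 with injection (cisplatin against water). Lymphocyte markers had 0 of 5 higher with gavage cisplatin and 2 of 5 with intravenous cisplatin, and markers of injured tubule 4 and 5 of 5. The part of these shifts in the changes of the lysosome and autophagy genes was not tested.

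Slides of the arrays did not hold the groups evenly. Gavage cisplatin replicate 1 shared slide 1 with all 3 arrays of gavage water, replicates 2 and 3 shared slide 2 with all 3 of intravenous water, and slide 3 was left to intravenous cisplatin. Blocked by slide as a fixed term, the gavage comparison rests on slide 1 alone, its lone cisplatin array being assumed to vary like the others, and gave 6 members higher and 14 lower with a median of -0.38, where 21.9% of all features were higher and 24.8% lower. The calls that ended there were those of Atg7 (-0.44), Cd63 (-0.34), Ctsb (-0.47), Ctss (0.78), Lipa (-0.19), Npc2 (0.53) and Tfeb (-0.42), against -0.54, -0.35, -0.53, 0.87, -0.27, 0.61 and -0.38 without the block. In the intravenous comparison slide and group cannot be told apart.

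**Figure D5:**
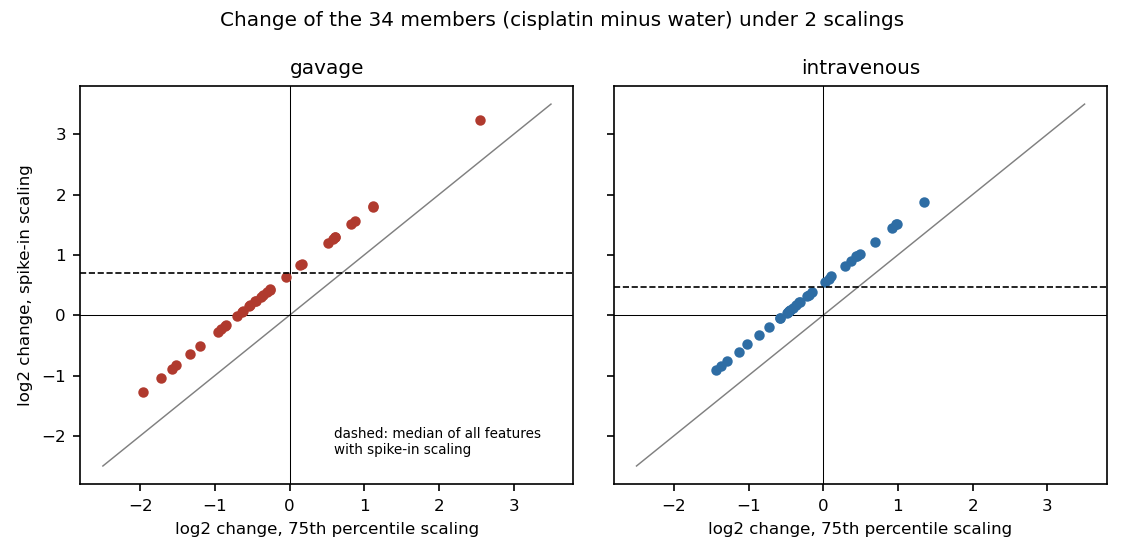
Change of the 34 members with cisplatin scaled to the 75th percentile of the array (horizontal axis) and to the spike-in probes (vertical axis), both log2 cisplatin minus water, for the gavage experiment on the left and the intravenous one on the right; the grey line marks equal values and the dashed line the median of all features with spike-in scaling. Members keep their order and lie above the grey line, and those with the smaller falls lie above 0 on the vertical axis.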

How the data were processed

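Per the submitters' processing notes the authors read the arrays with Agilent Feature Extraction 10.7 (10.7.1.1 per the file headers). Its processed intensity, as deposited, had the background of its own array removed and no scaling across arrays, per the file headers, and the deposited median spot and background intensity are raw. The authors' deposited value table holds a linear ratio, the processed intensity over the 75th percentile of its array, as matching to the scanner values showed (column medians 0.109 to 0.121); no source used here says how it was chosen. Marks for spots above background, saturated or uneven are the software's, per the file headers. No probe positions are printed, since the design is on rn4.

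Of 61537 probes outside 1439 control spots, 28206 matched 1 symbol through RefSeq accessions (GRCr8, names only), 33331 none and 0 several. Without 82 uneven spots, the log2 processed intensity minus the log2 75th percentile of its array was taken. Features were named genes, each by its brightest probe, and unnamed probes. Those with a signal well above background in every rat of some group were tested (34444 of 48976, 12610 of them named). limma 3.58.1 (R 4.3.3) fitted 4 group means to the 12 arrays, leaving 8 residual degrees of freedom (prior 2.09). Tests were two-sided and p-values were Benjamini-Hochberg adjusted across every feature. The script was tested on simulated data. The number of arrays limits the precision.

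Every member is accounted for. Array values are given for called members with the 5 largest rises and 4 largest falls in either experiment, and for Tfeb, Tfe3, Sqstm1 and Map1lc3b. From the difference of effects and the water comparison the 3 smallest p are named, with members whose probes gave opposite calls and up to 3 genes per further list. Ctsk in the difference of effects, Atp6v1d, Atp6v0a1 and Tsc1 were named after their values were seen. The members and lists were chosen with earlier results of these data known. Alternatives were other background corrections, scalings, filters, probes, blocks and samples. Background correction by normexp (offset 50) used the median spot signal, since the files used here have no mean signal column.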

Additional observations from a re-analysis of the deposited data

How the results depend on the processing

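Of the 8 rises and 19 falls called with gavage cisplatin, 6 and 6 kept their call under every alternative, and 6 and 13 under all but spike-in scaling. Of the 9 rises and 15 falls with intravenous cisplatin, 5 and 5 did, and 5 and 11 without spike-in scaling. Ctsd, Gusb, Scarb2, Tfe3, Ctsa, Mcoln1, Neu1, Glb1 and Gabarapl1 kept theirs in both experiments.

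Spike-in scaling adds one constant per array and so moved every feature. It gave 15 rises and 6 falls with gavage cisplatin (median of the members 0.27) and 15 and 5 with intravenous cisplatin (median 0.21). The median was 0.0071 for the difference of effects and 0.12 for the water groups, where it changed sign. On that scale these members changed sign in the gavage experiment: Atg7 0.15, Cd63 0.34, Ctsb 0.16, Ctsc 0.64, Galns 0.23, Gla 0.38, Lamp2 0.061, Lipa 0.42, Map1lc3b 0.052, Psap 0.23, Tfeb 0.31 and Ulk1 0.43. In the intravenous experiment these did: Atg7 0.38, Cd63 0.16, Ctsb 0.21, Gaa 0.12, Gla 0.069, Lamp1 0.058, Lgmn 0.081, Lipa 0.34, Map1lc3b 0.043, Psap 0.32, Tfeb 0.22 and Ulk1 0.073. Quantile normalization moved the intravenous median to -0.17 and turned Ctsc with gavage cisplatin (0.19) and Ctsb with intravenous cisplatin (0.046), and the cause was not tested. Galns with intravenous cisplatin turned with the deposited ratios (-0.0064) and with normexp (-0.21), which moved the median of all features to -0.13 and -0.12 in the gavage and intravenous experiments.

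With 1 array left out, gavage rises numbered 7 to 9 and falls 17 to 20, and intravenous rises 6 to 10 and falls 13 to 17. In these fits 26.3% to 30.4% of all features rose and 26.6% to 30.3% fell with gavage cisplatin. With intravenous cisplatin 23.2% to 26.4% rose and 28% to 32.7% fell. The difference of effects gave 0 to 1 rises and 0 to 1 falls, those of Ctsa and Ctsk, where 0% to 2.77% of all features rose and 0% to 5.9% fell. Members near 0 changed sign: Ctsc (-0.096 to 0.036) with gavage cisplatin and -0.077 with intravenous cisplatin, Ctss -0.0005 and -0.092, and Galns -0.13 and -0.013, both intravenous.

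With the replicate number as a block, gavage cisplatin gave 8 rises and 20 falls and intravenous cisplatin 9 and 14, and the difference of effects and the water groups 0. Of all features 28.9% rose and 28.9% fell with gavage cisplatin in that fit, and 25.6% and 31% with intravenous cisplatin. The difference of effects and the water groups had 0% of all features past the test. Of 18 same-numbered pairs of arrays 1 correlated above 0.1 (range -0.35 to 0.18). The numbers thus gave no clear sign of pairing, which groups of 3 arrays cannot exclude. The slide as a random block (correlation -0.012) changed no call. As a fixed block it could not be fitted to the intravenous comparison or the difference of effects.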
